A study of Mus musculus with 16 samples.

Results

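The 16 whole-lung samples of this mouse study fell into 2 classes by the level of Krt13, the type I keratin of the upper layers of non-hair-bearing squamous epithelium. The spot annotated Krt13 with the highest mean over all 16 arrays read above 10 (log2 intensity) in 11 samples, called Krt13-high here, and below 8 in 5 samples, called Krt13-low. Of the 20304 genes tested, 182 separated these classes, Krt13 among them by the rule itself, and all were higher in the Krt13-high samples. Of these, 37 were on lists of genes of squamous epithelium, the cornified envelope and the epidermis, 25 were on lists of skeletal muscle genes, and 120 were on none of the 26 lists used.

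All mice were C57BL/6, aged 9 to 12 weeks, and total RNA of the whole lung was hybridised in 1 colour (Cy3), 1 array per sample. Each mouse received either CAV1 TSB at 5 mg/kg or Control TSB, whose dose the labels do not give, by the intratracheal route on 3 occasions, 4 days and then 2 days ahead of PBS or bleomycin (1 unit/kg) and again 4 days later. A target site blocker (TSB) is an oligonucleotide that covers a microRNA's binding site on a chosen mRNA, here that of caveolin-1, and bleomycin is a DNA-damaging drug that brings on lung fibrosis in mice. The day of lung collection is not given in the sources used here, nor whether the lungs were trimmed, and the labels do not say that replicates were separate animals, so the spread behind each p-value is that among the samples, which may be technical. Both samples given Control TSB and PBS (PBS control 1 and 2) were Krt13-high, and both given CAV1 TSB and PBS (PBS CAV1 1 and 2) were Krt13-low. With bleomycin, 4 of 6 Control TSB samples (bleomycin control 1 to 6) were Krt13-high, the exceptions being replicates 2 and 6, and 5 of 6 CAV1 TSB samples (bleomycin CAV1 1 to 6) were, the exception being replicate 3. The RNA integrity number was 10 in bleomycin control 1 and 5, both Krt13-high, and 9 in all other samples, so it did not follow the classes otherwise.

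Stratified squamous epithelium lines the oesophagus, the mouth and the forestomach of the mouse and covers the skin. Its basal cells express Krt5 and Krt14, and in the oesophagus the cells above them change to the keratin pair Krt4 and Krt13 before they build a cornified envelope of cross-linked small proteins such as loricrin, the small proline-rich proteins and the late cornified envelope proteins. The wall of the mouse oesophagus is made of skeletal muscle over most of its length, and the oesophagus runs behind the trachea between the lungs. The healthy lung has no cornified epithelium and no skeletal muscle of its own, though cardiac muscle sheathes its large veins and adipose tissue lies around the hilum.

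Krt13 was between 13.70 and 14.97 log2 units in the 11 Krt13-high samples, with a median of 14.34. In the Krt13-low samples it was 5.97 and 6.01 in PBS CAV1 1 and 2, 6.01 and 5.99 in bleomycin control 2 and 6, and 6.08 in bleomycin CAV1 3. The samples nearest to the thresholds were bleomycin CAV1 4 at 13.70 and bleomycin CAV1 3 at 6.08, so no sample lay between or near them. The low values lay near the 25th percentile of the arrays, which was 5.97 to 5.99, at the dim end of the scale. A second Krt13 spot read 10.75 to 12.31 in the high and 6.47 to 6.75 in the low samples. The classes were chosen by these measured Krt13 values, and the class differences given here are descriptions with no test.

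Krt4, the type II partner of Krt13, was 11.85 to 13.30 in the Krt13-high samples, with a median of 12.69. It was 5.93, 5.99, 6.15, 6.07 and 6.25 in the Krt13-low samples, in the order PBS CAV1 1 and 2, bleomycin control 2 and 6, and bleomycin CAV1 3. Acta1, the actin of skeletal muscle thin filaments, was 12.95 to 14.70 in the Krt13-high samples (median 13.43) and 7.53, 7.95, 9.87, 7.84 and 7.66 in the low samples in the same order. Both genes left a gap between the classes, and bleomycin control 2 was the low sample with the most Acta1. Placing the samples at the midpoint of the second Krt13 spot, of Krt4 or of Acta1 gave the same class for 16 of 16 samples each time.

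**Figure D1:**
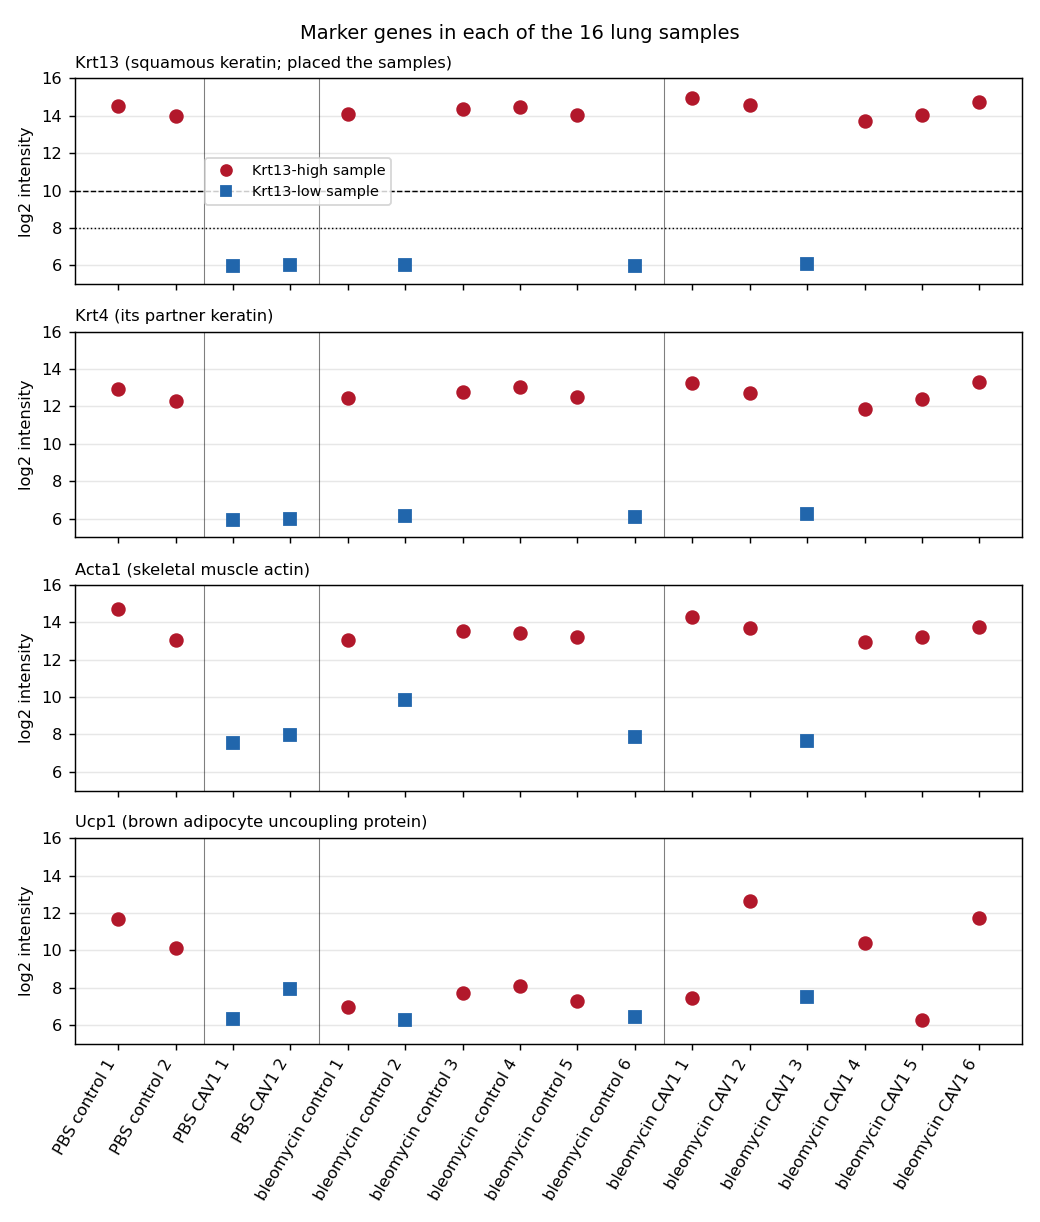
Log2 intensity of Krt13, Krt4, Acta1 and Ucp1 (vertical axes) in each of the 16 samples (horizontal axis, vertical lines between the 4 labelled groups); 1 point is 1 array, circles are Krt13-high and squares Krt13-low samples, and the dashed and dotted lines in the top panel are the thresholds of 10 and 8. Krt13, Krt4 and Acta1 leave no overlap between the classes, whereas Ucp1 is above 10 in 5 Krt13-high samples and at or below 8.09 in all the others.

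The promoters of 3 of the leading genes are shown because these genes were high and low in the same samples although they belong to different tissues: Krt13, Lor (loricrin, the main protein of the cornified envelope) and Acta1. Each window covers 250 bases before and 50 after a start site (RefSeq, GRCm38.p6), printed 5′ to 3′ along the gene's strand, the minus strand for all of them. Capitals mark TATAAA (the TATA box), TGANTCA (the letters bound by AP-1 factors, loosened to allow any base in the middle) and the CArG box (the letters bound by serum response factor). Each was searched on both strands. The windows are chr11:100121517-100121816 for the first start of Krt13, chr3:92083093-92083392 for Lor and chr8:123894726-123895025 for Acta1.
Krt13: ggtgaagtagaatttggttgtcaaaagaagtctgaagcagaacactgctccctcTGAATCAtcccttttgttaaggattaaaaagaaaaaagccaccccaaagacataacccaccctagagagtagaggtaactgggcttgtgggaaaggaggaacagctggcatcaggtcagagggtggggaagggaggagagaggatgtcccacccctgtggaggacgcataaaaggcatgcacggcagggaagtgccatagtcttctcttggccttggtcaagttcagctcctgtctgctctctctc
Lor: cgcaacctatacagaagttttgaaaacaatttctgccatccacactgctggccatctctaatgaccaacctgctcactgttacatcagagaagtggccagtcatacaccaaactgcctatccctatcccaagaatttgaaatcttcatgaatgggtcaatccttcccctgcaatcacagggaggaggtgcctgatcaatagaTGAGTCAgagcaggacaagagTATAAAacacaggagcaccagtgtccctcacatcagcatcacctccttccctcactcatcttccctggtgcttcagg
Acta1: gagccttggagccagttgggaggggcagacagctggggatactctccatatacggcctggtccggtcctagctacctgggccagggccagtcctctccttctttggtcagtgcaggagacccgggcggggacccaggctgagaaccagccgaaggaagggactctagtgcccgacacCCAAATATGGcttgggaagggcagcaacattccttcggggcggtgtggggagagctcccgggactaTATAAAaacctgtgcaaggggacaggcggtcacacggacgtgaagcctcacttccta

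The Krt13 and Lor windows each held 1 TGANTCA match and no CArG box, and the Acta1 window held 1 CArG box and no TGANTCA. The match read TGAATCA in Krt13 and TGAGTCA in Lor. The window of a second Krt13 start, not printed, held 2 matches, both TGACTCA. Among the separated genes, 132 had 150 promoter windows in the RefSeq table. TGANTCA was in 37.5% of the 32 windows of separated genes from the squamous and cornified lists and in 9.52% of the 21 windows of separated genes from the skeletal muscle lists, against 7.81% of all 32851 windows. The CArG box was in 14.3% of those muscle windows, in 0% of those squamous windows and in 1.63% of all windows, and TATAAA was in 28.1%, 23.8% and 13.6% of the squamous, muscle and all windows. A match in these windows is a run of letters and not a shown binding site.

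Across the array, a gene was counted as separated where the 11 Krt13-high and the 5 Krt13-low samples did not overlap and their means differed by at least 1 log2 unit. Separated genes lower in the Krt13-high samples numbered 0 (0%). The 182 separated genes, which include Krt13 by the rule itself, were 0.896% of the 20304 tested. Their median difference was 2.08 log2 units, against -0.02 for all genes tested. Of the 182, 97 differed by 2 or more, 38 by 4 or more and 10 by 6 or more. The genes just inside the minimum were Il1r2, Pax9 and Casp14 at 1.00, and just outside it stood Stxbp4 and Eno3 at 1.00 after rounding and Dsg1a at 0.96. A further 20 genes had means at least 1 apart but overlapping samples. Without the minimum, 273 genes lay wholly above and 34 wholly below, and the largest of the falls, that of Magix, was -0.55. For 85 of the 182 genes (46.7%), all 5 Krt13-low samples were below the median of their array, compared with 25% of all genes, so these differences start near the dim end of the scale, where they cannot grow further downwards.

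**Figure D2:**
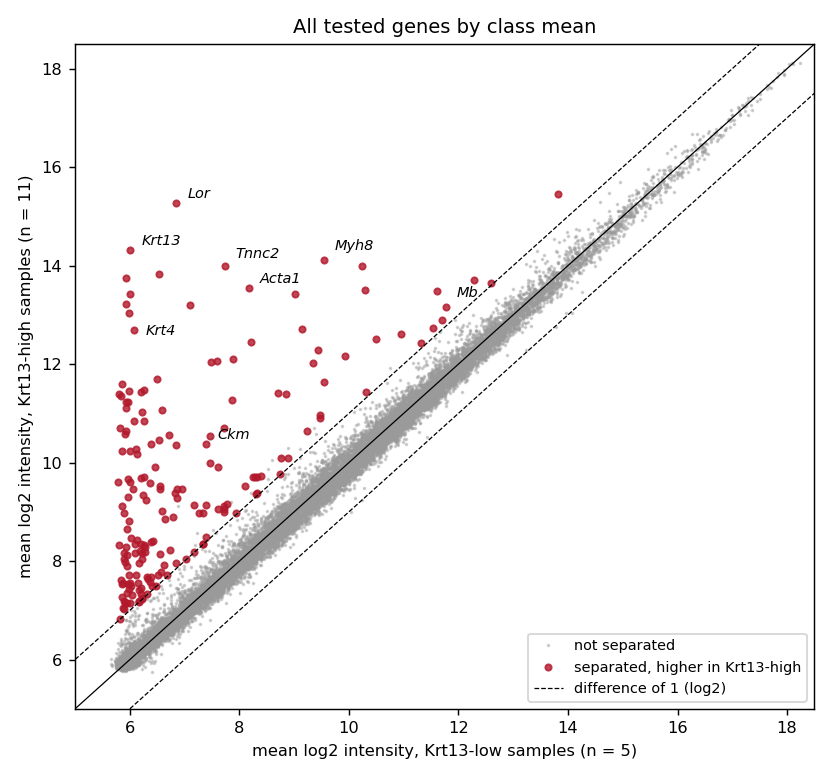
Mean log2 intensity of each tested gene in the 5 Krt13-low samples (horizontal axis) and in the 11 Krt13-high samples (vertical axis); the solid line marks equal means, the dashed lines a difference of 1 log2 unit, and red points the 182 separated genes. The red points lie on 1 side of the diagonal, many of them at the dim left edge, and the remaining genes follow the diagonal.

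The classes were also compared within the bleomycin samples. These are part of the 16, so a gene without overlap over all 16 cannot overlap here, and only the size minimum could drop it. The number of shared genes below is therefore largely fixed in advance. In the 9 Krt13-high and 3 Krt13-low bleomycin samples alone, 182 genes (0.896%) were separated upwards and 0 downwards, and 168 genes were on both lists, 92.3% of each. The 14 genes not shared differed by 1.00 to 1.12 over all 16 samples and included Casp14, Tcap and Xirp2, named here after their values were seen. Lor differed by 8.59, Krt13 by 8.31, Krt4 by 6.54, Tnnc2 by 5.57 and Acta1 by 5.01 log2 units among the bleomycin samples, against 8.41, 8.31, 6.60, 6.27 and 5.37 among all 16. Over all tested genes, PBS control 2 correlated least with the other arrays, with a median r of 0.979, against 0.984 to 0.992 for the rest. Without the separated genes the lowest were PBS control 2 with 0.981 and bleomycin CAV1 6 with 0.986, against 0.991 to 0.995. Without PBS control 2, 201 genes were separated, 180 of the 182 among them, and without bleomycin CAV1 6, 181 were.

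Many of the separated genes were neighbours in the genome. Of the 180 protein-coding ones with a place in the RefSeq gene order, 74 (41.1%) stood in 22 runs in which no more than 2 tested genes lay between neighbours. The share for any other 180 of the 18935 placed genes was not computed, so the 41.1% has no background to be set against. The longest run held 20 separated genes out of 20 tested genes in a row: the late cornified envelope cluster from Lce1a1 to Lce1m, with Kprp and Crct1 inside it. The other runs of 3 or more were Serpinb5 to Serpinb11 with 5 serine protease inhibitors, Krt32, Krt13, Krt15 and Krt14 of the type I keratins, 4 kallikrein proteases from Klk14 to Klk9, the adjoining myosin genes Myh1, Myh4 and Myh8, the interleukin-1 family genes Il1f8, Il1f6 and Il1f5, the trio Sprr1b, Sprr3 and Sprr1a, the trio Sbsn, Dmkn and Krtdap of secreted keratinocyte proteins, and Psors1c2, Cdsn and 1 unnamed gene model. By family, 17 of 17 tested Lce genes were separated, against 0.896% of all genes. Other families had smaller shares, though also above that of all genes. These were 3 of 11 Sprr, 7 of 51 Krt, 5 of 26 Serpinb, 5 of 25 Klk, 3 of 14 Myh and 3 of 9 troponin genes. Lce genes resemble each other closely, and whether a spot detects more than 1 of them was not tested.

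Cornified envelope genes were among those with wide class differences. Of the 33 tested genes of that list, 19 were separated (57.6%, against 0.896% of all genes), and the list's median difference was 1.42, against -0.02 for all genes. Lor was 13.97 to 15.99 in the Krt13-high samples (median 15.33) and 6.86, 7.09, 6.86, 6.94 and 6.49 in PBS CAV1 1 and 2, bleomycin control 2 and 6, and bleomycin CAV1 3. Lce3a was 12.22 to 14.77 in the high samples (median 13.84) and 5.87 to 5.99 in the low ones. Krtdap, a secreted protein of differentiating keratinocytes, was 12.12 to 13.85 (median 13.09) and 5.87 to 6.13. The 3 genes had no sample in between, and the low samples lay at the dim end of the arrays. The differences were 7.41 for Lce3b, 7.30 for Lce3c, 7.29 for Crct1, 5.52 for Sprr3 and 5.22 for Lypd3, a membrane protein of suprabasal keratinocytes, and 5.74, 5.60, 5.48 and 5.29 for Lce1d, Lce1a1, Lce1c and Lce1i. The smallest among the separated genes of this list were 1.19 for Evpl (envoplakin, a linker of the envelope to desmosomes), 1.20 for Prom2 and 1.42 for Dmkn.

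Keratins and junction proteins of stratified squamous epithelium followed. In that list 14 of 35 tested genes were separated (40%, against 0.896% of all genes), Krt13 among them by the rule itself. The median difference over all 35 was 0.96. Krt5, the basal keratin, was 10.98 to 13.05 in the high samples and 6.87 to 8.50 in the low ones, a difference of 4.21. Its partner Krt14 differed by 2.55, as did Krt15, and Krt78, a keratin of upper oesophageal layers, by 5.23. Pkp1, a desmosomal plaque protein, differed by 4.58, and Pax9, a transcription factor of the foregut epithelium, by 1.00. The wound and hyperproliferation keratins Krt6a, Krt6b, Krt16 and Krt17 were not separated and differed by 0.31, 0.47, 0.34 and 0.19. The basal regulators Trp63 and Sox2, which airway basal cells express too, differed by 0.05 and -0.10. In the epidermis and hair list 4 of 18 tested genes were separated (22.2%, against 0.896% of all genes), with a median of 0.15. The 4 were Lor, Asprv1 (a protease that processes filaggrin) at 6.11, Cst6 at 2.41 and Casp14 at 1.00. Flg, the filaggrin gene of the skin surface, overlapped between the classes and differed by 0.87.

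Skeletal muscle genes made up the other large group. Of the 27 tested genes of the fast fibre list, 20 were separated (74.1%, against 0.896% of all genes), with a median difference of 1.64 over all 27. Tnnc2, the calcium-binding troponin of fast fibres, was 12.72 to 15.77 in the high samples (median 13.92) and 6.59, 6.94, 10.35, 7.0 and 7.77 in PBS CAV1 1 and 2, bleomycin control 2 and 6, and bleomycin CAV1 3. Ckm, the muscle creatine kinase, was 9.73 to 11.34 (median 10.30) and 7.17, 7.77, 7.94, 6.88 and 7.22. Both sets of samples stayed apart, and bleomycin control 2 was again the highest of the low samples. The fast myosin heavy chains Myh1 and Myh4 differed by 5.21 and 3.98, and Tnnt3, the fast troponin T, by 4.24. Myh8, the perinatal myosin heavy chain, differed by 4.58. It was the 1 separated gene of the 16 tested (6.25%) for the neuromuscular junction and muscle precursors.

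Slow fibre genes took part less evenly. In that list 4 of 16 tested genes were separated (25%, against 0.896% of all genes), with a median of 0.37. The 4 were Myl3 at 3.21, Mybpc1 at 2.94, Mb (myoglobin) at 1.39 and Actn2 at 1.33. Except for Mybpc1 these genes are also expressed in heart muscle, and Mb was already 11.25 to 12.33 in the Krt13-low samples, against 12.50 to 14.36 in the high ones. Myh7, the slow myosin heavy chain, differed by -0.33, and Tnnc1, the slow and cardiac troponin C, by 0.25.

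Of the 182 separated genes, 62 were on one of the 26 lists, 37 of them on the squamous, cornified and epidermis lists and 25 on the muscle lists, and 120 were on none. Among the latter, H19, an imprinted RNA that skeletal muscle keeps expressing after birth, differed by 4.48, Mt4, the metallothionein of stratified squamous epithelium, by 4.81 and Ada, the adenosine deaminase, by 3.57. Gsdma, an epithelial gasdermin, differed by 4.76, and Pitx1, a homeobox gene of the hindlimb and oral epithelium, by 3.45. Alox12b, a lipoxygenase of the skin lipid barrier, differed by 3.10 and Defb4, an antimicrobial defensin, by 3.08. These 7 were named after their values were seen.

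Genes of glands, fat and other tissues that lie around the airways were also listed. None of the 24 tested gland genes, 18 white adipocyte genes, 16 brown adipocyte genes, 20 cardiac, 15 smooth muscle, 11 thyroid and parathyroid, 15 thymus, 20 cartilage or 12 tendon genes was separated, against 0.896% of all genes, so that a count of 0 in lists of this size is near the background. The medians of these 9 lists were between -0.04 for the glands and 0.19 for the brown adipocyte list. Among the gland genes the largest difference was 0.36, for Bpifa2, a salivary protein. The cardiac gene Nppa, the atrial natriuretic peptide, was 11.27 to 14.92 in the high and 11.41 to 12.67 in the low samples. Adipoq, the adipocyte hormone adiponectin, was 9.76 to 12.30 in the high samples and 11.27, 12.24, 10.10, 9.67 and 11.73 in the low ones in the order used above, so both classes held samples with much and with little of it.

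Ucp1, the uncoupling protein of brown adipocytes, had the largest difference among the overlapping genes, 2.24. It was 11.67 and 10.15 in PBS control 1 and 2 and 12.63, 10.40 and 11.72 in bleomycin CAV1 2, 4 and 6. In the other 6 Krt13-high samples it was 6.26 to 8.09, and in the 5 low samples 6.27 to 7.91. Cidea, a lipid droplet protein of brown adipocytes, was likewise highest in bleomycin CAV1 2 at 12.43 and in PBS control 1 at 11.79. The 5 samples with Ucp1 above 10 were thus all Krt13-high, but most Krt13-high samples were not among them.

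Lung cell genes were counted in the same way. None of the 15 tested alveolar type 2, 14 alveolar type 1, 11 club cell, 17 ciliated cell, 17 lung endothelial and 14 alveolar macrophage genes was separated, which is likewise near the 0.896% of all genes, and the list medians were -0.15 to 0.09. Sftpc, the surfactant protein C of alveolar type 2 cells, read 18.01 to 18.16 in the high samples and 18.05 to 18.16 in the low ones, at the top of the scale. In whole-tissue RNA fewer cells of a type and less RNA per cell cannot be told apart, and values normalised to the same distribution on every array show shares of the RNA, not amounts.

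**Figure D3:**
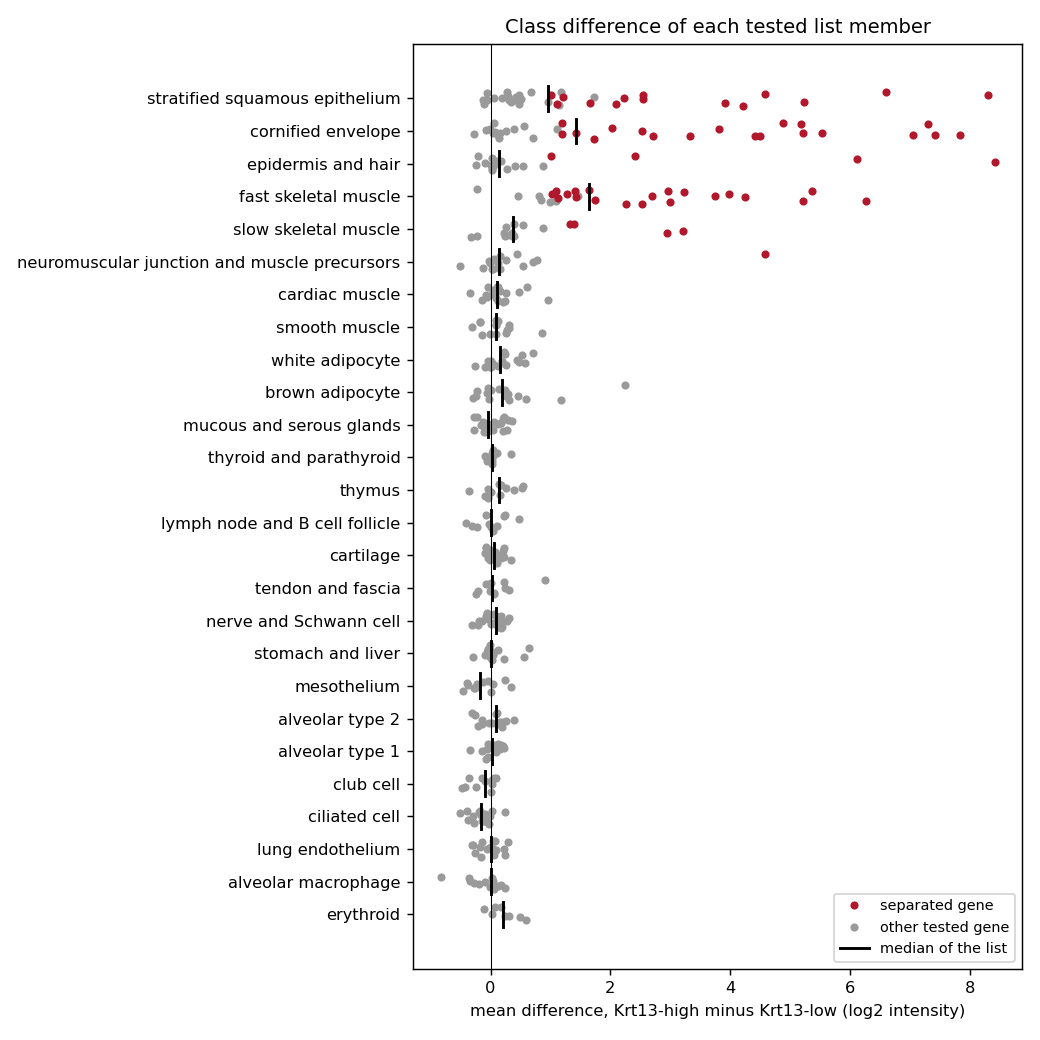
Mean difference between the Krt13-high and Krt13-low samples (log2 intensity, horizontal axis) of each tested gene of the 26 lists (rows); red points are separated genes and black bars list medians, and the vertical scatter within a row carries no value. Separated genes are found in the upper 6 rows, the squamous, cornified, epidermis, fast, slow and precursor muscle lists, and in none of the rows below.

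The Krt13-high samples differed among themselves, and squamous and muscle genes did not peak in the same sample. Of the 37 separated squamous, cornified and epidermis list genes, 34 were highest in bleomycin CAV1 1 and 28 lowest, among the Krt13-high samples, in PBS control 2. Of the 24 separated fast and slow muscle list genes, 22 were highest in PBS control 1, where they stood a median of 1.43 log2 units over the median of the Krt13-high samples, and 10 were lowest in PBS control 2. The fast muscle list mean was 11.80 in PBS control 1, 10.90 in bleomycin CAV1 1 and 9.79 to 10.38 in the other 9 Krt13-high samples. Among the Krt13-low samples, 16 of the 24 muscle genes were highest in bleomycin control 2, whose fast muscle list mean was 8.56 against 7.79 to 8.03 in the other 4. Its cornified envelope mean of 7.59 lay within the 7.55 to 7.61 of those 4. Its stratified squamous list mean of 8.54 was the highest of the low samples, the others being 8.32 to 8.50, and so were its Krt5 at 8.50 and its Sprr1a at 9.77. Most squamous genes did not go this way. Of the 37 separated squamous, cornified and epidermis list genes it was highest of the low samples in 8 and lowest in 7, and bleomycin CAV1 3 was highest in 12. Bleomycin control 2 thus stood highest of the low samples for muscle genes and, by a smaller margin, for the stratified squamous list mean. It did not for the cornified envelope list mean or for most separated squamous genes.

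**Figure D4:**
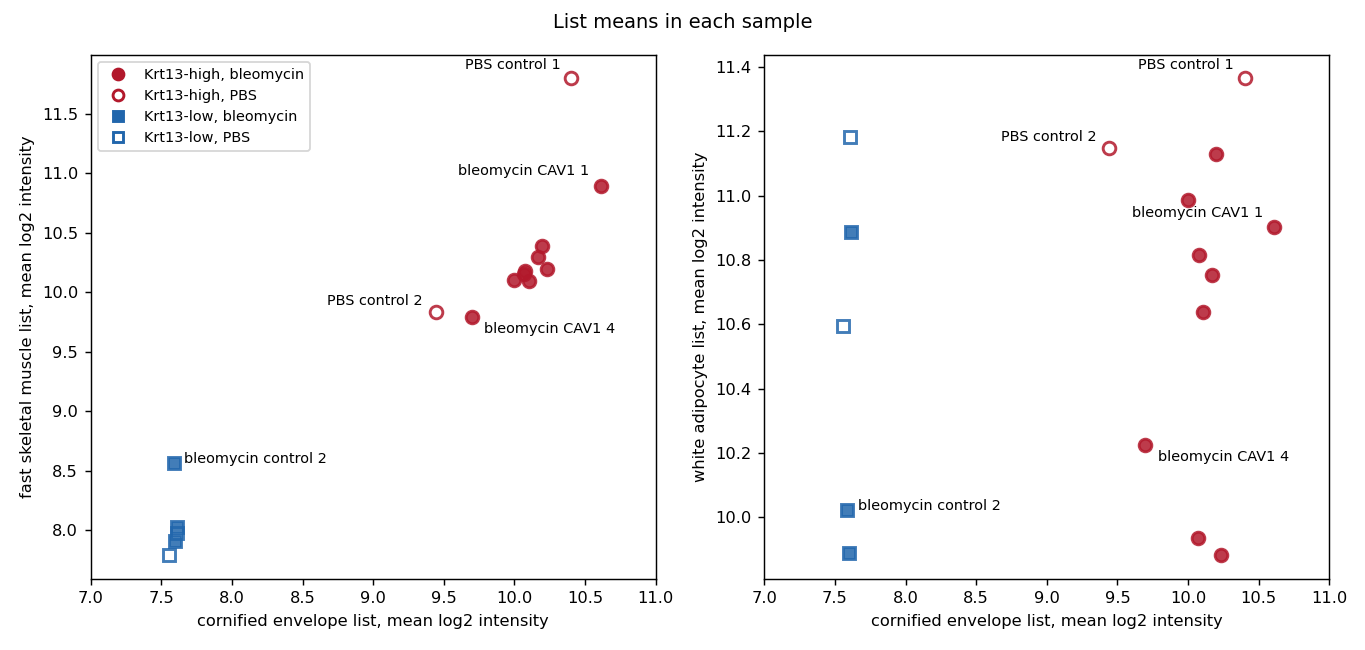
Mean log2 intensity of the cornified envelope list (horizontal axes) against that of the fast skeletal muscle list (left) and the white adipocyte list (right) in each sample; circles are Krt13-high, squares Krt13-low, filled bleomycin and open PBS samples. On the left the classes are apart on both axes and PBS control 1 is highest at 11.80, and on the right both classes span the vertical axis, from 9.88 to 11.36 in the Krt13-high and from 9.89 to 11.18 in the Krt13-low samples.

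Within the 11 Krt13-high samples, 9 relations between markers were computed. The 5 that involve Krt13 are given without a test, since Krt13 chose these samples. Krt13 and Krt4 had a Pearson r of 0.951 and a Spearman rho of 0.90, and without the 2 samples farthest from the median of Krt13 r was 0.921 and rho 0.833. Krt13 and Acta1 had r = 0.781 and rho = 0.873, without the 2 farthest samples r = 0.681 and rho = 0.817, and in the 9 bleomycin samples r = 0.949. Krt13 and Adipoq had r = 0.625 and rho = 0.509, and r = 0.793 in the bleomycin samples. With Myl7, the atrial myosin light chain, and with Sftpc, Krt13 had r = 0.319 and r = -0.143.

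The other 4 relations were tested with two-sided permutation tests on 100000 resamples, with p adjusted over all 9. Acta1 and Ckm had r = 0.861 (permutation p = 0.00087, adjusted p = 0.00391) and rho = 0.818 (adjusted p = 0.0103). Without the 2 samples farthest from the median of Acta1, r was 0.574 (adjusted permutation p = 0.297) and rho 0.667 (adjusted p = 0.177), so this relation did not hold without them, and in the bleomycin samples r was 0.946. Acta1 and Adipoq had r = 0.558 (adjusted permutation p = 0.121) and rho = 0.60 (adjusted p = 0.126). In the 9 bleomycin samples these were r = 0.66 (adjusted permutation p = 0.0976) and rho = 0.80 (adjusted permutation p = 0.0249), so there the rank relation passed the threshold and the linear one did not. Acta1 had r = 0.335 with Myl7 and -0.104 with Sftpc, with adjusted permutation p of 0.435 and 0.763. Only 2 Krt13-high samples had PBS, too few for a value of their own.

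The study's main comparison, CAV1 TSB against Control TSB after bleomycin, had Krt13-high and Krt13-low samples on both sides, 5 and 1 against 4 and 2. Krt13, given without a test because it made the classes, was 13.02 ± 3.43 with CAV1 TSB and 11.49 ± 4.26 with Control TSB (SD, n = 6 each). The other 7 of 8 markers were compared by the exact two-sided permutation test over the 924 assignments of the 12 samples, whose smallest possible p is 0.00216, with p adjusted over all 8. This exact test gave adjusted p = 0.66 for each of Krt4, Acta1, Ckm and Adipoq, whose differences were 1.13, 0.77, 0.58 and 0.52. Ucp1 differed by 2.20 with an exact p of 0.104 and an adjusted p of 0.416, and Myl7 by -0.06 with an adjusted p of 0.842. Among these, the cartilage collagen Col2a1 passed the threshold. It was 6.20 to 6.44 after CAV1 TSB and 6.47 to 6.88 after Control TSB, 6.32 ± 0.09 against 6.62 ± 0.16 (SD, n = 6 each), a difference of -0.29 with the smallest exact p the test can give, 0.00216, and an adjusted p of 0.0173. These levels are near the array medians of 6.51 to 6.52, and in the 9 Krt13-high bleomycin samples the difference was -0.36 with an adjusted exact p of 0.0635, where the smallest possible unadjusted p is 0.00794. Without bleomycin CAV1 1, 2 or 5 its adjusted exact p was 0.0519. The cartilage list as a whole did not separate the classes.

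In limma's fit across all 20304 genes, 327 genes (1.61%) differed between the blockers after bleomycin at an adjusted p under 0.05, 243 higher and 84 lower with CAV1 TSB. None of the 182 separated genes was called, and none had an unadjusted p under 0.05. Their median blocker difference was 0.35 log2 units and 179 of 182 were positive; the groups held 5 and 4 Krt13-high samples. The median standard error of the separated genes was 0.514, against 0.0956 over all genes. With the class as a covariate, the median difference of the separated genes was 0.00 and their median standard error 0.230. The separated genes were chosen by that same class, so these values largely follow from the choice. With the covariate 322 genes were called, 300 of the 327 among them. Among the 9 Krt13-high bleomycin samples alone 228 genes were called, and 211 of the 327 were among them. The called gene with the largest rise, the RNA helicase Ddx6, rose by 1.49 ± 0.10 (SE, limma adjusted p = 1.43e-06), by 1.5 with the class as a covariate and by 1.51 in the Krt13-high samples alone. Among the 327 called genes the class difference lay between -0.48 and 0.42, and 0 of them reached 1 in either direction. Of all 20304 genes only the 182 separated and 20 overlapping ones reached 1, so a count of 0 in 327 is near the background. The larger standard errors of the separated genes also made a call among them less likely.

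After PBS, the comparison of CAV1 TSB with Control TSB was also a comparison of Krt13-low with Krt13-high samples, 2 against 2, so that the blocker and the class cannot be told apart in these 4 samples. Krt13 was 5.97 and 6.01 against 14.50 and 14.01, Lor 6.86 and 7.09 against 15.76 and 13.97, and Tnnc2 6.59 and 6.94 against 15.77 and 12.72. All 182 separated genes were lower with CAV1 TSB, as the split itself fixes, by a median of -2.02 log2 units. In the limma fit, which takes its spread from all 16 samples, 63 genes (0.31%) passed an adjusted p under 0.05, 56 higher and 7 lower, and 0 of the 182 separated genes were among them, although 129 had an unadjusted p under 0.05. Their median standard error was 0.890, against 0.166 over all genes, and the bleomycin groups, which hold both classes, enter that spread. With only the 4 PBS samples in the fit 3 genes were called, and all 3 were separated genes. The separated genes were chosen for not overlapping between these same samples, among others. Their p-values after PBS therefore restate that choice and do not test the blocker.

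Among the 63 genes, the muscle gene Mybpc2 (myosin-binding protein C of fast fibres) had the largest fall. It was 7.46 and 7.77 with CAV1 TSB and 10.58 and 9.22 with Control TSB, and fell by 2.28 ± 0.44 (SE; limma adjusted p = 0.0454). Its class difference over all 16 samples was 1.46, the only one of the 63 that reached 1, with overlap because bleomycin control 2 and 6 read 9.58 and 9.20. With the class as a covariate its adjusted p was 0.456, and it was not called in 10 of the 16 fits without 1 array. Hspb7, a chaperone of heart and skeletal muscle, fell by 1.73 ± 0.29 (SE; limma adjusted p = 0.0181), with an adjusted p of 0.278 under the covariate, and its class difference was 0.65. Ddx6 rose by 1.8 ± 0.17 (SE; limma adjusted p = 0.000574) and by 1.77 with the covariate (adjusted p = 0.0141). The covariate left 5 of the 63 called, and the separated genes then had a median blocker difference of 0.10, with 75 negative and 107 positive. Each PBS group holds only 1 class, so the covariate takes its class effect from the bleomycin samples alone. The fit assumes the same class effect after PBS, and the PBS samples cannot show whether that holds. The count of 63 moved widely with single arrays: it was 4024 without PBS control 1 and 168 without PBS control 2, with 2 and 1 separated genes among the called. It was 34 without PBS CAV1 2, 41 and 40 without bleomycin control 1 and 3, and 41 without bleomycin CAV1 5.

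**Figure D5:**
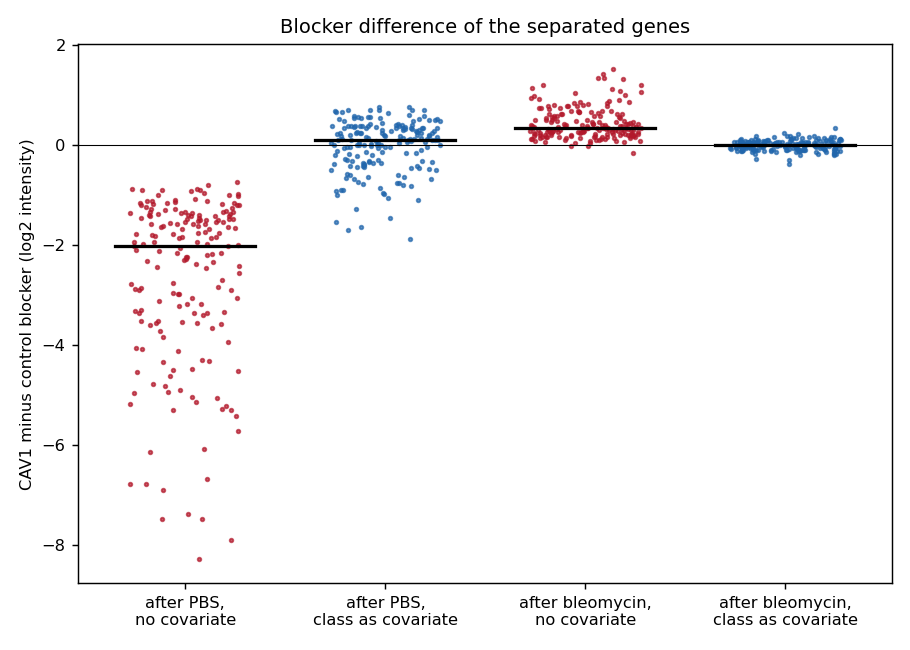
Difference between CAV1 TSB and Control TSB (log2 intensity, vertical axis) of each of the 182 separated genes, after PBS and after bleomycin, without and with the Krt13 class as a covariate; black bars are medians and the horizontal scatter carries no value. After PBS without the covariate every point is below 0 with a median of -2.02, and the other 3 medians lie between 0.00 and 0.35. The class effect that the covariate takes off after PBS comes from the bleomycin samples alone, and the genes were chosen for differing by class.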

How the data were processed

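The deposited values are log2 intensities of single-colour Agilent arrays, 1 for each of the 16 samples, normalised by the authors with limma, per the submitters' processing notes; the background correction is not given in the sources used here, and the arrays carry no detection calls. All arrays have nearly the same distribution (median 6.51 to 6.52). Of 62976 spots, 31465 had a gene name, and 2933 symbols were updated through RefSeq accessions. For each of 20863 genes the spot with the highest mean was used, and the 20304 genes that exceeded the 25th percentile on 2 or more arrays entered the tests. Class differences are described without a test, since Krt13 in these samples made the classes; the members and gene lists were chosen with earlier results of these data known. The blockers were compared with limma 3.58.1 (R 4.3.3), with 1 mean per labelled group, 12 residual degrees of freedom and Benjamini-Hochberg adjusted p under 0.05, and markers other than Krt13 by exact permutation tests (scipy 1.17.1). The fit was tested on simulated data. The genes named were the markers, the largest class differences, the members of the lists and the largest called changes, and others are said to be chosen after their values were seen. Alternatives changed the filters, spots, normalisation, covariates and samples. The precision is limited by the number of arrays.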

Additional observations from a re-analysis of the deposited data

Results flagged for a closer look

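Of 102 sets of 4 to 10 samples tested for a sample far from the rest by Dixon's 95% limit, 14 (13.7%) had one. Chance gives about 1 in 20 for a single set. These sets share samples and genes, so the 13.7% cannot be measured against that. Among the 6 samples given CAV1 TSB and bleomycin, replicate 3 stood below the rest with Krt13 at 6.08, Krt4 at 6.25, Acta1 at 7.66 and Ckm at 7.22 (log2 intensity). Its list means were also lowest, at 8.50 for stratified squamous epithelium, 7.61 for the cornified envelope and 6.67 for epidermis and hair. It is the only Krt13-low sample of its group. The Krt13 value put it in that class and is also part of the stratified squamous list mean. The remaining values were not used for that, but these genes and lists also differed between the classes, so their flags largely repeat the class split. In the same group, replicate 1 had the lowest thyroid and parathyroid list mean, 6.58, and the highest thymus and erythroid list means, 7.20 and 14.74, and replicate 4 had the highest stomach and liver list mean, 8.10. Among the 5 Krt13-low samples, bleomycin control 2 stood above the rest with Acta1 at 9.87. PBS CAV1 1 had the lowest list means for mucous and serous glands, 8.48, and for cartilage, 6.75, of the Krt13-low samples.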

How the results depend on the processing

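With a size minimum of 2 log2 units 97 genes were separated, without one 34 were lower, and leaving out 1 sample at a time gave 170 to 201 higher and 0 to 0 lower. After PBS the blocker comparison called 5 genes with the class as a covariate, 14 with the replicate block, 3 with only the compared samples and 34 to 4024 without 1 replicate. After bleomycin it called 212 with the replicate block (210 shared) and 249 to 394 without 1 replicate. The numbers do not pair the samples: same-numbered bleomycin samples deviated together with correlations of -0.690 to 0.352, 3 of 6 over 0.1. Without 1 replicate, the blocker difference after bleomycin was -0.028 to 1.76 for Acta1, reversed to -0.028 without bleomycin control 6, -0.17 to 0.12 for Myl7 and -0.32 to -0.24 for Col2a1, which was -0.36 in the Krt13-high samples, past no threshold. Within the Krt13-high samples r was 0.681 for Krt13 with Acta1 and 0.574 for Acta1 with Ckm without the 2 farthest samples, and 0.793 for Krt13 with Adipoq and 0.053 (from -0.104) for Acta1 with Sftpc in the bleomycin samples; the cause was not tested. Of the comparisons of named genes between blockers, 83 were no longer past the threshold and 407 kept their side. Signal near the dim end of the arrays limits the class differences.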

Other observations

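Some genes were at least 2 log2 units higher in 1 sample than in every other, named here after their values were seen. PBS control 1 had 8 such genes, and the largest gap was that of Fcrl1 (18.16, next highest 7.19). Among the others were the slow fibre list genes Myl2 (11.25, next 6.78) and Tnnt1 (12.07, next 10.00). The fast fibre gene Pvalb (11.35, next 9.18) and the thymocyte genes Dntt (11.09, next 7.24) and Rag1 (9.87, next 7.06) were too. Bleomycin CAV1 5 had 6, among them Tmem200a (18.28, next 8.89) and Icos (17.22, next 8.76), near the top of the scale. Whether such lone values are faults of single spots was not tested. The thymus list mean of PBS control 1 was 8.47, against 7.05 to 7.20 in the other 15 samples. In bleomycin CAV1 4, Ttr, the transthyretin carrier made mainly in liver and choroid plexus, was 12.51 against at most 6.17 elsewhere.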
